A study of Mus musculus with 32 samples.

Results

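The cytosolic ribosomal proteins were followed row by row through 3 ways of preparing lung RNA for sequencing and through the loss of Bmal1. Members were the rows of the gene table whose symbol starts with Rpl, Rps or Rplp and a digit. S6 kinase symbols (Rps6k) and symbols marked as pseudogenes (-ps) were dropped. Of 41687 rows, 337 matched the pattern, 10 kinase rows and 236 named pseudogenes were left out, and 91 rows remained, 54 of the large and 37 of the small subunit. GENCODE M21 annotates 85 of them as protein-coding and 6 as pseudogenes in spite of their plain symbols (Rpl37rt, Rps4l, Rpl6l, Rps12l1, Rps3a2 and Rps3a3). The label "ribosomal protein" also takes in Rps19bp1, which encodes a binding partner of the S19 protein and not a ribosomal subunit.

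Each ribosome is built from a small and a large subunit, and nearly every subunit protein is encoded by a single expressed gene that is active in all cells. These messenger RNAs are short and abundant, and many begin with a tract of pyrimidines through which their translation follows growth signals (TOP messenger RNAs). The genes have also left many processed pseudogenes, copies of the spliced messenger RNA reinserted into the genome, so that several rows of a gene table can hold nearly the same sequence. A few true paralogs are tissue-biased, such as Rpl3l of heart and skeletal muscle and Rpl10l and Rpl39l of the testis.

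The tissue was lung of adult mice aged 8 to 18 weeks, from C57b/6 wild type (WT) and from Bmal1 knock-out mice (KO), which lack a transcription factor of the circadian clock encoded by Arntl. Ribosomal RNA was pulled out before the RiboZero libraries (6 WT, 6 KO), polyadenylated RNA was selected for PolyA (6 WT, 6 KO), and neither was done for NoSelect (4 WT, 4 KO, mice 3 to 6 of each genotype), which gave 32 libraries in 6 groups. Input was 200 ng of RNA, but 15 ng for NoSelect, whose material came from 6 replicate preparations of a mouse, and the same mice recur across preparations. The labels do not say which tissue or allele the knock-out covers.

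Total counts ran from 11638594 to 25801237 in RiboZero, from 29924325 to 41548830 in PolyA and from 74979802 to 115059756 in NoSelect, where Lars2 and a transcript row of Gm42418 held 69.2% ± 1.35 (SD, n = 8). Outside these rows NoSelect totals ran from 22009262 to 37100656. The sum of 8 lung marker genes was 16097 to 50489 normalised CPM (reads scaled to a common library size by TMM) in all libraries. One NoSelect library, KO mouse 6, is labelled as liver. Its lung markers summed to 24246 normalised CPM and its 8 liver markers to 18.6, and the liver sum of the other NoSelect libraries was 6.28 to 18.1. The same mouse, KO mouse 6, did not match its labelled sex in any of its 3 libraries. Arntl was lower in KO libraries of RiboZero (15.2 to 18.7 normalised CPM against 27.0 to 33.9) and of NoSelect (16.6 to 18.7 against 27.5 to 29.4), while in PolyA the groups overlapped (17.0 to 20.9 against 19.6 to 23.6).

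The ribosomal protein rows took 0.861% ± 0.0307 (SD, n = 8) of the NoSelect counts outside Lars2 and the Gm42418 row, 1.17% ± 0.0749 (SD, n = 12) of the RiboZero counts and 2.63% ± 0.118 (SD, n = 12) of the PolyA counts. The library ranges of 0.792 to 0.892%, 1.05 to 1.36% and 2.48 to 2.77% did not overlap. Of the whole NoSelect total the share was 0.266% ± 0.0198 (SD, n = 8). By genotype the shares without those rows were 1.16% in WT and 1.17% in KO for RiboZero, 2.60% and 2.66% for PolyA, and 0.875% and 0.847% for NoSelect. In bulk tissue fewer cells of a type and less RNA per cell cannot be told apart, and these shares are of whole lung.

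Levels were compared between genes per kilobase of the principal transcript. In NoSelect, where no RNA class was selected, Rpl41, the smallest protein of the large subunit, was highest at 419 ± 18.0 normalised CPM per kilobase (SD, n = 8). Rplp1, an acidic protein of the large subunit stalk, followed at 365 ± 14.5, and the library ranges of the pair (398 to 458 against 341 to 382) did not overlap. Rps27rt led the small subunit at 288 ± 16.4, with Rps15 next at 269 ± 11.8, and these neighbours overlapped. Rps27rt has the same 255 coding bases as Rps27, so these data do not resolve which gene its reads came from. Rpl23a and Rps14 stood at 253 ± 13.4 and 218 ± 7.48. By principal transcript, Rpl41, Rplp1 and Rpl23a also led the large subunit in PolyA and RiboZero. In the small subunit Rps29 was highest in PolyA at 656 ± 22.1 (SD, n = 12), ahead of Rps15 and Rps27rt, and in RiboZero Rps27rt and Rps15 were followed by Rps3a1 at 265 ± 12.9 (SD, n = 12). Of the 91 rows, 9 lay under 1 normalised CPM per kilobase in NoSelect, 8 in PolyA and 9 in RiboZero. With the median protein-coding transcript length in place of the principal one, Rplp1 ranked above Rpl41 in NoSelect (365 against 347). Rplp0 then stood above Rpl23a in each preparation (298 against 253 in NoSelect), and Rps24 rose from 83.9 to 258 in NoSelect, next to Rps27rt in the small subunit. These orders depend on the gene model.

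The stalk proteins, which recruit elongation factors to the ribosome, were higher in PolyA than in NoSelect, as the class was. Rplp0 ran from 246 to 268 normalised CPM in NoSelect with a median of 251, from 287 to 353 in RiboZero with a median of 312, and from 463 to 532 in PolyA with a median of 507. The 3 ranges did not overlap. Its fitted log2 change was 1.02 ± 0.03 (SE) in PolyA against NoSelect, and that of Rplp1 and Rplp2 was 1.12 ± 0.04 and 1.14 ± 0.05 (edgeR adjusted p = 1.26e-16, 1.97e-16 and 6.4e-15). Over mice left out, the log2 change in RiboZero against NoSelect was 0.27 to 0.29 for Rplp0, near the class median of 0.28. Those of Rplp1 (0.12 to 0.16) and Rplp2 (0.073 to 0.10) lay below the class's lower quartile of 0.21.

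Rows of the class were higher in PolyA than in NoSelect almost without exception. Of 86 members tested, 81 were higher and 3 lower at an adjusted p under 0.05 (edgeR's quasi-likelihood fit, p adjusted by Benjamini-Hochberg over all 18372 rows), where 42.8% of all rows were higher and 36.3% lower, 79.1% together. A log2 change of at least 1 was reached by 65 members against 10% of all rows. The members' median log2 change was 1.14 and that of all rows 0.10. The other 5 members, Rpl10l, Rpl39l, Rpl6l, Rps12l1 and Rps27, had too few counts to be tested. By subunit the medians were 1.12 over 51 large-subunit rows and 1.23 over 35 small-subunit rows.

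RiboZero differed from NoSelect in the same direction by much less. Of 83 members tested, 71 were higher and 3 lower, against 24.3% and 21.5% of 17502 rows (45.9% together). None was higher by a log2 of 1 or more (1.74% of all rows), and the median was 0.28 against 0.03 for all rows. PolyA against RiboZero gave 80 higher and 2 lower of 85 members, against 42.5% and 38.6% of 18164 rows (81.1% together), with 18 members at a log2 of at least 1 (7% of all rows) and a median of 0.81 against 0.07. These 3 comparisons share their libraries and are not independent. With at least 10 counts required in every library the 18 became 11.

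**Figure D1:**
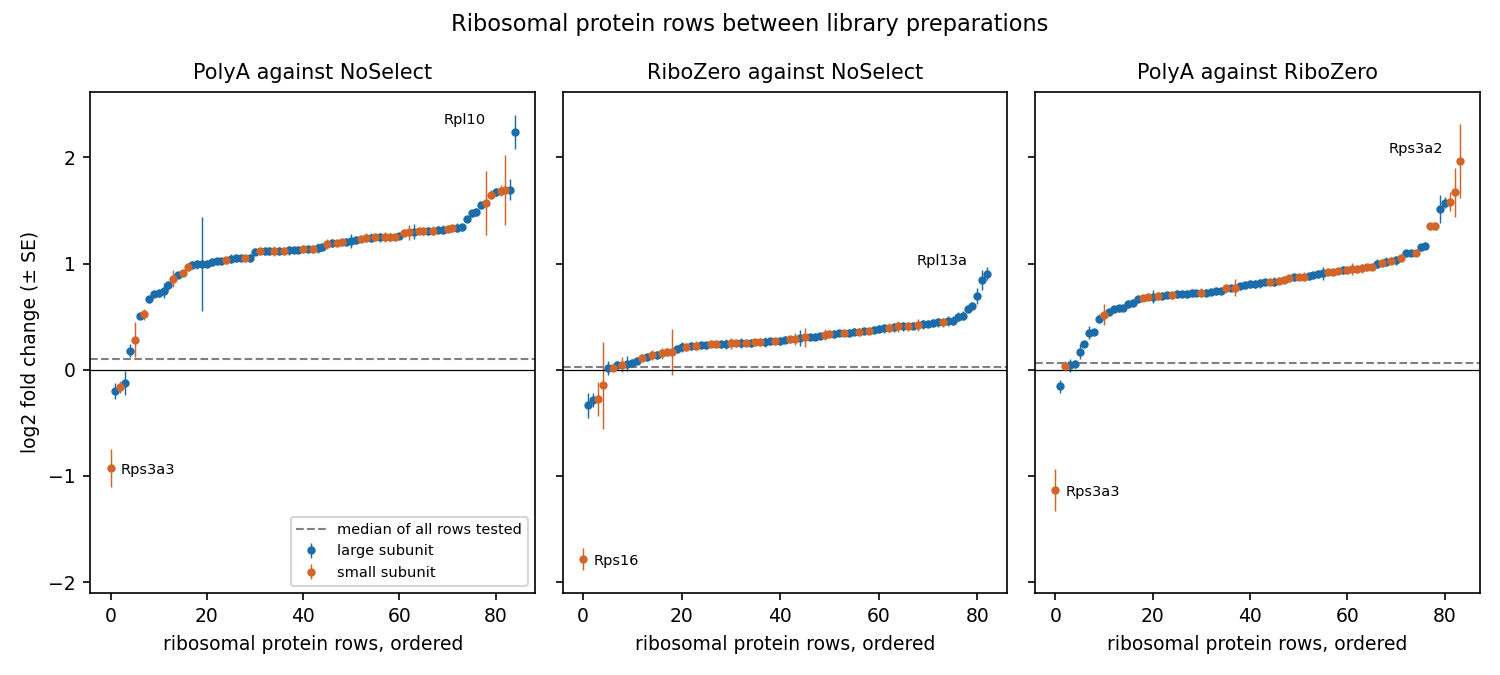
Each point is a ribosomal protein row, ordered by its log2 fold change (vertical axis, bars are the standard error of the fit) in each of the 3 preparation comparisons; the dashed line is the median of all rows tested and the row furthest down and up in each panel is named. Rps12, at 0 in every RiboZero and NoSelect library, is left out, and most rows form a narrow band above the dashed line with medians of 1.14, 0.28 and 0.81.

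Apart from Rps12, described below, the highest changes in PolyA against NoSelect were those of Rpl10 (2.24 ± 0.16 SE), Rpl13 (1.70 ± 0.10), Rps3a2 (1.69 ± 0.33), Rps29 (1.69 ± 0.05) and Rpl22l1 (1.67 ± 0.04). Of these, Rps3a2 is an annotated pseudogene row with only 0 to 12 counts per library in NoSelect and 14 to 30 in PolyA. Rps29 and Rps21, small proteins of the small subunit, showed the higher PolyA level plainly. Rps29 ran from 70.4 to 97.9 normalised CPM in NoSelect, from 89.7 to 119 in RiboZero and from 244 to 266 in PolyA, with medians of 81.5, 98.4 and 256. Rps21 ran from 55.6 to 63.9, from 64.4 to 77.9 and from 170 to 200, with medians of 58.0, 70.2 and 175. PolyA stood clear of both other preparations in each row.

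At the other end, Rpl31 differed little between preparations. It lies in the large subunit close to the exit of the peptide tunnel. Its medians were 5.48 in NoSelect, 7.22 in RiboZero and 6.08 in PolyA, with ranges of 4.76 to 6.72, 5.39 to 7.85 and 5.66 to 7.33. In PolyA against RiboZero it was lower by a log2 of -0.16 ± 0.06 (SE, adjusted p = 0.0225), a call that was lost in mice 3 to 6 alone, without a filter on low counts and without WT mouse 1, 2 or 4. Rps6, the small-subunit protein phosphorylated by the S6 kinases, had medians of 4.48, 4.60 and 6.05 normalised CPM in NoSelect, RiboZero and PolyA. Its log2 change in PolyA against NoSelect was 0.28 ± 0.17 (SE, adjusted p = 0.12). The rows of Rpl31 and Rps6 were low for the class. Per kilobase they stood at 5.36 and 5.94 normalised CPM in NoSelect, where the median over the 91 rows was 96.5. Why they were low was not tested. Rpl28, a large-subunit protein, was lower in PolyA than in NoSelect by a log2 of -0.20 ± 0.08 (adjusted p = 0.0195) and in RiboZero than in NoSelect by -0.28 ± 0.07 (adjusted p = 0.00135). Its libraries overlapped throughout, at 20.4 to 30.5 in NoSelect, 17.7 to 23.1 in RiboZero and 17.5 to 23.4 in PolyA. Rpl27, also of the large subunit, was lower in RiboZero than in NoSelect (-0.34 ± 0.11, adjusted p = 0.0196), and on the sum with the rows that share its sequence it was higher (0.37 ± 0.13, adjusted p = 0.0269). Rps3a3, an annotated pseudogene of Rps3a1, was lower in PolyA than in NoSelect (-0.92 ± 0.18, adjusted p = 8.7e-05) and than in RiboZero (-1.13 ± 0.20, adjusted p = 1.4e-05, a drop of over 1 that 16.6% of all rows shared), on 4 to 27 counts per library.

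Shorter members tended to gain more in PolyA. Over 81 protein-coding members other than Rps12, the log2 change in PolyA against NoSelect and the length of the principal transcript had a Spearman rho of -0.43 and a Pearson r on log2 length of -0.28, as a description across genes that share their libraries. The 22 members of at most 600 bases had a median log2 change of 1.25 (1.05 to 1.69), and the 17 members of over 1200 bases one of 1.05 (0.51 to 1.31). Over 15257 protein-coding rows rho was -0.68. Over the 1040 protein-coding rows of at most 1000 bases, which had a median log2 change of 0.98, rho was -0.06 and Pearson r 0.18, so that the slope over all rows was not seen among short rows alone. For RiboZero against NoSelect rho over 80 members was 0.07. A few lengths are long gene models (Rps15a at 5179 bases and Rps20 at 3706), and with the median transcript length rho in PolyA against NoSelect was -0.37.

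**Figure D2:**
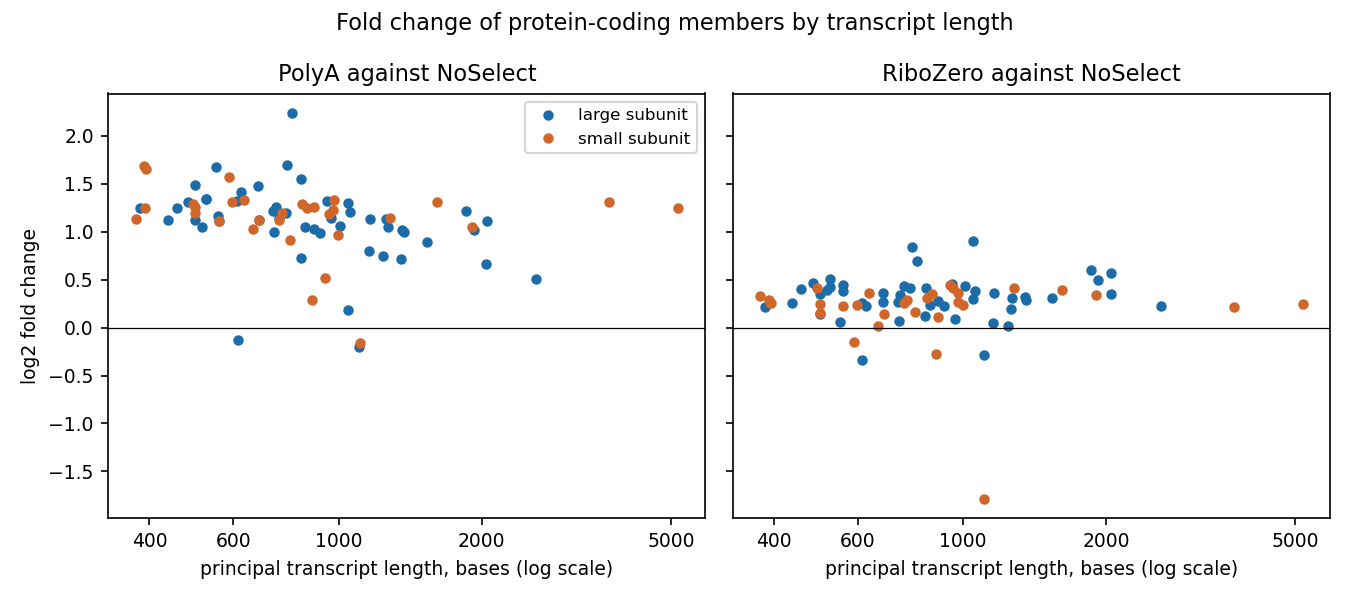
Log2 fold change of each protein-coding member except Rps12 (vertical axis) by the length of its principal transcript in bases (horizontal log axis), coloured by subunit, in a PolyA and a RiboZero panel, each set against NoSelect. In the PolyA panel shorter members tend to lie higher (Spearman rho -0.43), and in the RiboZero panel no such slope is seen (rho 0.07).

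Related genes gave the background for these numbers, to be read against the shares of all rows. Against NoSelect, 42.8% of all rows were higher and 36.3% lower in PolyA, and 24.3% and 21.5% in RiboZero. Of 78 mitochondrial ribosomal protein genes, which build the separate ribosome of that organelle, PolyA was higher than NoSelect for 73 and lower for 2 (median log2 0.89), and RiboZero was higher for 49 and lower for 4 (median 0.18). Among 16 translation factors and other TOP genes, 15 were higher in PolyA, led by Eef1b2, an elongation factor subunit, at 1.29, and Pabpc1, the cytoplasmic poly(A)-binding protein, was lower at -0.42. Of 18 genes of ribosome assembly, 14 were higher and 2 lower in PolyA, with a median of 0.31. The snoRNP proteins Nop10 and Gar1 reached 1.09 and 1.04, and Polr1a, the catalytic subunit of RNA polymerase I, was at -0.60. Among ribosomal proteins whose symbols fall outside the pattern, Rpsa (1.07) and Rack1 (0.83), both of the small subunit, were higher, and Fau stood at -0.09 (adjusted p = 0.16).

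Several rows that stood apart from the class belong to genes whose sequence recurs in another row. Reads from such a sequence can be split between rows by the quantifier in ways these data do not resolve. To measure it, the principal transcript of each member was divided into all its 31-base words, and a word was called shared when a transcript of another gene also holds it. The median member shared 55.2% of its words, 52 members shared at least 50% of theirs, and 2 members (Rpl3l and Rps19bp1) shared none.

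Rps12, a protein of the small subunit head, was the extreme. Its row held 0 counts in all 12 RiboZero and all 8 NoSelect libraries, and 14264 to 19514 counts in the 12 PolyA libraries. In PolyA that was 276 to 331 normalised CPM with a median of 297, at least 2986-fold above NoSelect and at least 2368-fold above RiboZero when 3 counts per library are taken as the floor of those at 0. Rps12-ps3 ran the other way. That row, annotated as protein-coding on chromosome 19, ran from 127 to 144 in NoSelect, 156 to 188 in RiboZero and 29.4 to 40.8 in PolyA. The coding sequences of both are identical over all 399 bases, and 83.8% of the words of Rps12 recur in Rps12-ps3. The opening 120 bases of the Rps12 coding sequence (gene at chr10:23785183-23787275, minus strand, GRCm38) show what a read has to be placed by. No base is in capitals because none differs from Rps12-ps3 (chr19:59322290-59322783, plus strand).
Rps12: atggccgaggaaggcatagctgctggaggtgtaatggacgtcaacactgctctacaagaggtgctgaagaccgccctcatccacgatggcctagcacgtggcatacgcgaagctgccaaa

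Rps12 was summed with every row holding at least 30% of its words, or of those of a member so joined. This took 18 rows in all, and the level was 134 ± 5.86 in NoSelect (SD, n = 8), 173 ± 8.84 in RiboZero and 331 ± 17.2 in PolyA (SD, n = 12). Fitted on the sums, Rps12 changed by a log2 of 1.33 ± 0.04 (SE) in PolyA against NoSelect and 0.37 ± 0.03 in RiboZero against NoSelect. In PolyA against RiboZero the change was 0.94 ± 0.03. The class medians were 1.14, 0.28 and 0.81, and the class's upper quartiles 1.30, 0.39 and 0.96, so the sum lay near the upper quartile each time. This summing was chosen after the data were seen. Rps12l1, a short pseudogene row of which all words recur in Rps12, was at 0 in all libraries.

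Rpl10, which joins late to the large subunit, shared 92.3% of its words with Rpl10-ps3, and their coding sequences are identical over 645 bases. The row of Rpl10 held 16.0% of their joint counts in NoSelect, 23.0% in RiboZero and 36.7% in PolyA. Rpl10 ran from 36.3 to 44.1 normalised CPM in NoSelect, from 49.1 to 79.3 in RiboZero and from 120 to 361 in PolyA. The PolyA value of 361 was that of KO mouse 3, in which Rpl10-ps3 fell to 167 normalised CPM, the lowest of the 12. Summed over 5 rows, the PolyA libraries ran from 485 to 528, and the fitted log2 change in PolyA against NoSelect was 1.03 ± 0.03 (SE) in place of 2.24 ± 0.16.

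Rps16, a small-subunit protein whose tail reaches the peptidyl tRNA, was the only member lower in RiboZero than in NoSelect by a log2 of more than 1 (-1.78 ± 0.10 SE, adjusted p = 1.9e-11), where 2.56% of all rows were. It ran from 17.8 to 37.6 normalised CPM in RiboZero, 83.5 to 103 in PolyA and 93.6 to 120 in NoSelect, so that RiboZero was clear of the rest and PolyA and NoSelect overlapped. Rps16-ps2, identical to it over the 441 coding bases, was at 0 in 7 of 8 NoSelect libraries and at 24.0 in KO mouse 6, ran from 0 to 20.3 in RiboZero and from 86.7 to 105 in PolyA. On the sum of both rows Rps16 still stood apart in RiboZero against NoSelect (-1.40 ± 0.14, adjusted p = 4.1e-08), while PolyA against NoSelect turned from -0.16 to 0.77 ± 0.06.

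Other pairs split their counts in a stable or a preparation-dependent way. Rps27 was nearly empty, at 5 counts or fewer in every library, while Rps27rt, an intronless retrogene with the same 255 coding bases, ran from 101 to 117 normalised CPM in NoSelect, 120 to 169 in RiboZero and 202 to 248 in PolyA. The row of Rpl12 held 7.89% of its joint counts with Gm10275 in NoSelect, 6.28% in RiboZero and 5.63% in PolyA. Rps23 held 73.6%, 73.6% and 46.0% of its joint counts with Rps23-ps1. Gm8430, which holds 53.9% of the words of Rps27a, was at 0 in RiboZero and NoSelect and at 61.1 ± 7.40 normalised CPM (SD, n = 12) in PolyA. Rpl28-ps1 likewise had at most 4 counts in RiboZero and 0 in NoSelect against 61.4 ± 4.91 in PolyA, and on the sum with it Rpl28 was higher in PolyA than in NoSelect (1.77 ± 0.06) where the row alone had been lower. For Rpl5, a 5S RNA partner, the sum with Gm15500 turned PolyA against NoSelect from 0.66 ± 0.04 to -0.93 ± 0.27 (adjusted p = 0.0042), and Gm15500 itself varied from 10.7 to 130 between NoSelect libraries. On summed rows Rpl31 and Rps6 stood at 0.16 ± 0.06 and 0.29 ± 0.15. The row of Rpl31 already held 99.8 to 100% of its sum and that of Rps6 85.9 to 88.9%, so summing could change little. Over all members and sums, 80 of 83 were higher and 1 lower in PolyA against NoSelect, with a median of 1.17. In the fit on single rows, 42.8% of all rows were higher and 36.3% lower.

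**Figure D3:**
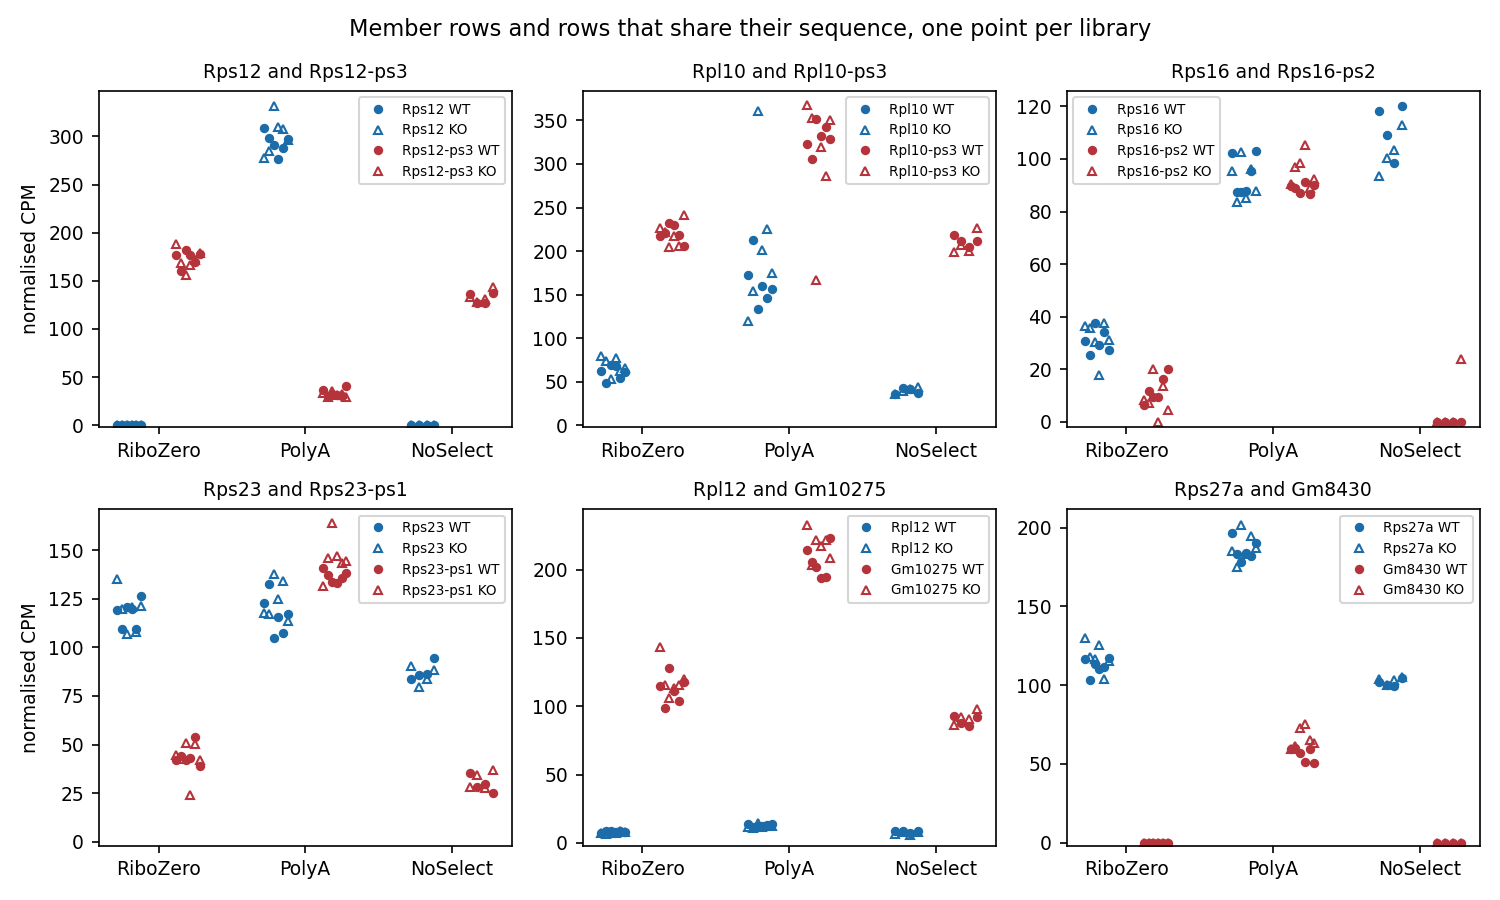
Normalised CPM (vertical axes) in each library for 6 members (blue) and a row that shares their sequence (red), by preparation, with filled circles for WT and open triangles for KO. Rps12 is at 0 in RiboZero and NoSelect and at 276 to 331 in PolyA, and Rps12-ps3 shows the opposite order.

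The tissue-biased paralogs were at or near 0. Rpl10l had no count in any of the 32 libraries. Rpl39l had at most 1 count in a RiboZero library, 2 in NoSelect and 8 in PolyA, and Rpl39, its partner in the exit tunnel of all cells, ran from 42.8 to 52.6, 50.6 to 65.3 and 107 to 126 normalised CPM in NoSelect, RiboZero and PolyA. The coding sequences of this pair differ at 23 of 156 bases, given here in capitals (GRCm38; Rpl39l at chr16:10170226-10174911, plus strand), and only 2.2% of the words of Rpl39l recur in another gene, so its low counts stand on sequence of its own.
Rpl39: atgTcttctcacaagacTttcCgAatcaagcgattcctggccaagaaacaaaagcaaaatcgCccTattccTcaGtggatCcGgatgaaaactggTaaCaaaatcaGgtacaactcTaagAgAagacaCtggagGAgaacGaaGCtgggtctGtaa
Rpl39l: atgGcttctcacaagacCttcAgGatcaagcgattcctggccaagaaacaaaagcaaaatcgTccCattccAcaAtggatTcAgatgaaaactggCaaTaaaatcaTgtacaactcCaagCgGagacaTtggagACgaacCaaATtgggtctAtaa

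Rpl3l, the striated-muscle form of the essential peptidyl-transferase protein Rpl3, was detected at a trace. It had 0 to 4 counts in RiboZero libraries, 2 to 16 in PolyA and 0 to 8 in NoSelect, with a median of 0.204 normalised CPM in PolyA. Rpl3 ran from 314 to 359 there. All 8 cardiomyocyte markers had counts, and they summed to 54.8 to 443 normalised CPM in RiboZero, 83.4 to 711 in PolyA and 57.5 to 240 in NoSelect. The 8 skeletal-muscle markers summed to 1.28 to 13.6 over all libraries. Their part in the Rpl3l counts was not tested. The 8 male germ-line markers summed to 0.551 or less in every library, with Tnp1 at 0 in all 6 groups.

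Paralogs that are broadly expressed were well covered. Rps27l differs from Rps27 and Rps27rt at 61 of 255 coding bases and responds to p53 in other settings. The sequences are shown because a read from most of this frame separates Rps27l from Rps27, while Rps27rt has the upper sequence letter for letter (GRCm38, Rps27 at chr3:90212522-90213651 and Rps27l at chr9:66946086-66949516; capitals mark the differences).
Rps27: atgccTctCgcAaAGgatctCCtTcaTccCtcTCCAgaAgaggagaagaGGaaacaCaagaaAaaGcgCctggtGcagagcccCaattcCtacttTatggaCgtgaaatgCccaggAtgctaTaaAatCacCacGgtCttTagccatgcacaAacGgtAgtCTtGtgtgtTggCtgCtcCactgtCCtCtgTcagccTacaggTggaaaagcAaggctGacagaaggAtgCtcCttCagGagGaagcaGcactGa
Rps27l: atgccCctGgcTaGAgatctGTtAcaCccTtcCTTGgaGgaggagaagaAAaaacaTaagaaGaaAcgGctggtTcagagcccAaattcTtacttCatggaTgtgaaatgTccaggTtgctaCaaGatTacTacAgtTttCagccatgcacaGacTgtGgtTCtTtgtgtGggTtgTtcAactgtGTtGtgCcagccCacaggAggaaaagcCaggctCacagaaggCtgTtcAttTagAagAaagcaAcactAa

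Rps27l ran from 12.9 to 15.4 normalised CPM in NoSelect, 14.2 to 19.1 in RiboZero and 31.4 to 34.4 in PolyA. Rpl22l1, whose partner Rpl22 binds RNA outside the ribosome as well, stood at 8.59 ± 0.600 in NoSelect (SD, n = 8) and 26.7 ± 1.47 in PolyA (SD, n = 12), against 58.3 ± 2.60 and 123 ± 6.05 for Rpl22. Between PolyA and NoSelect Rpl22l1 changed by a log2 of 1.67 ± 0.04 (SE) and Rpl22 by 1.11 ± 0.03. Rpl36a and Rpl36al, which differ at 39 of 321 coding bases, moved nearly alike, at 1.31 ± 0.04 and 1.34 ± 0.04. Rpl7l1, a factor of large-subunit assembly related to Rpl7, changed by 0.51 ± 0.03, below Rpl7 at 1.13 ± 0.03, and had a principal transcript of 2606 bases. The retrogene rows Rps4l and Rpl37rt changed by 0.86 ± 0.08 and 0.99 ± 0.04, and their parents Rps4x and Rpl37 by 1.23 ± 0.03 and 1.55 ± 0.04. Rps19bp1, the row that is no ribosomal protein, changed by 1.29 ± 0.07, between the class median of 1.14 and its upper quartile of 1.30. Differences between these fitted values within a pair were not tested.

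KO and WT libraries hardly differed in ribosomal protein rows. In RiboZero 1 of 83 members was called (3.46% of all rows were), in PolyA 1 of 86 (4.03%) and in NoSelect 0 of 83 (2.17%), and the row called in RiboZero and in PolyA was Rps13. At an unadjusted p under 0.05 there were 2, 2 and 3 members, against 16.4%, 18% and 15.7% of all rows. DESeq2 called Rps13 and Rpl21 in PolyA and no member in NoSelect. The members' median log2 change was 0.02 in RiboZero, 0.02 in PolyA and -0.01 in NoSelect, and leaving Rps13 aside, 75 of 82, 79 of 85 and 71 of 82 members lay within 0.1 of 0. The median standard error was 0.05 in each preparation. Rpl12 was the lowest of the rest in RiboZero (-0.12 ± 0.09 SE, adjusted p = 0.53), and Rpl10 the highest in PolyA (0.30 ± 0.22, adjusted p = 0.52). Rpl13a, a large-subunit protein, stood at -0.22 ± 0.06 in NoSelect (adjusted p = 0.13) and was called there without WT mouse 3 (-0.28).

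No difference of the KO effect between preparations was called for a member. As an interaction of genotype and preparation, 0 of 85, 0 of 86 and 0 of 83 members were called by edgeR and by DESeq2 (0% of all rows for edgeR). At an unadjusted p under 0.05 edgeR gave 0 members for PolyA against RiboZero (1.82% of all rows), 1 when PolyA was set against NoSelect (2.24%) and 2 when RiboZero was (1.39%). These shares of all rows are smaller than a p of 0.05 gives by chance. The fit took libraries of the same mouse as independent, although their deviations correlated at 0.512 to 0.778. It can therefore miss differences, and the absence of calls does not show equal KO effects. In the related lists a few genes were called, to be read against the 3.46%, 4.03% and 2.17% of all rows in RiboZero, PolyA and NoSelect. No biogenesis gene of 18 was called in RiboZero or NoSelect, and 2 of 18 were in PolyA, Fbl (-0.22) and Nop14 (-0.17), which act in ribosomal RNA processing and were lower. Of the 16 TOP and factor genes Eif3f was higher in RiboZero (0.20) and Hnrnpa1 lower in PolyA (-0.15), and none was called in NoSelect. Of the 78 mitochondrial ribosomal protein genes 1 was higher in RiboZero, 1 in PolyA and none in NoSelect.

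**Figure D4:**
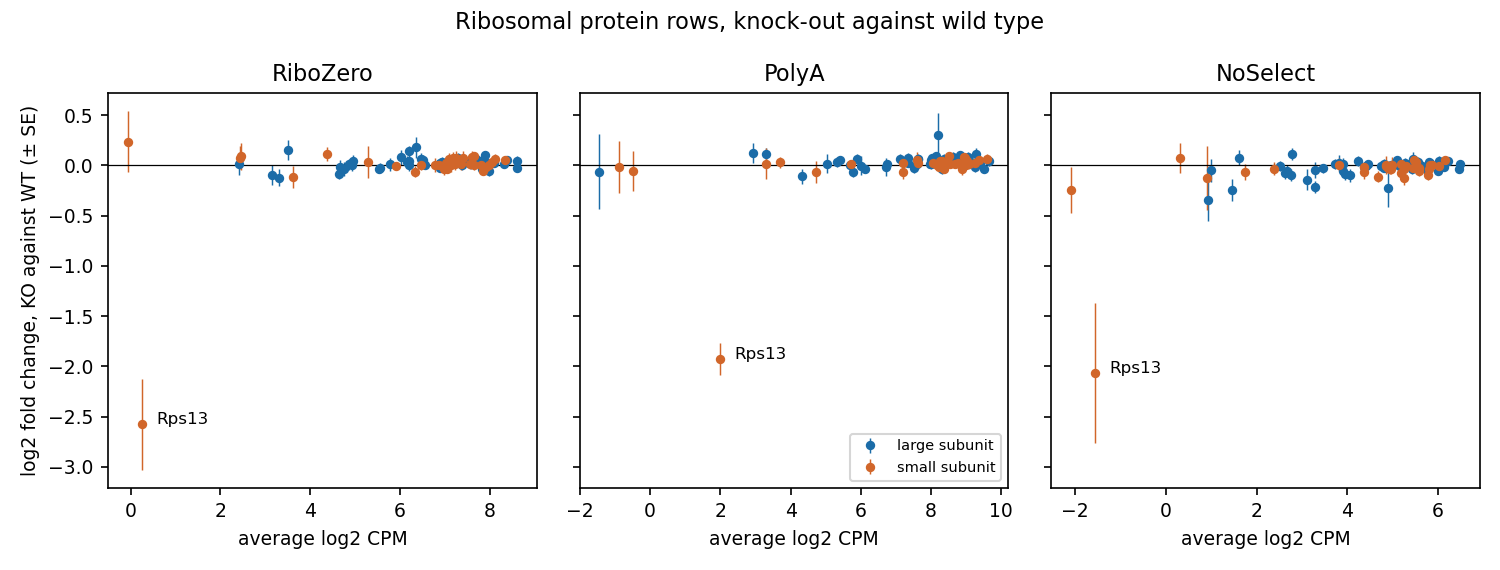
Log2 fold change of KO against WT (vertical axis, bars are the standard error of the fit) by average log2 CPM for every member tested in each preparation. Rps13 stands below all other rows in the 3 panels, at -2.58, -1.93 and -2.07.

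Members also varied little between mice of a group. The median SD of log2(normalised CPM + 0.5) within genotype was 0.09 for members in RiboZero, 0.07 in PolyA and 0.08 in NoSelect, against 0.15, 0.15 and 0.12 for all rows tested. Over rows of at least 10 normalised CPM the values were 0.09, 0.06 and 0.07 for members and 0.10, 0.11 and 0.08 for all rows. Rps13 in RiboZero and NoSelect and Rpl10 in PolyA varied most.

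Rps13, a small-subunit protein at the bridge to the large subunit, was the exception. Its own row was nearly empty in every preparation. In RiboZero the 6 WT libraries ran from 0.951 to 2.72 normalised CPM with a median of 1.22, and the 6 KO libraries from 0 to 0.480 with a median of 0.257. The PolyA libraries ran from 3.15 to 4.48 in WT and from 0.711 to 1.31 in KO. In neither preparation did the groups overlap. The 4 NoSelect WT libraries were at 1.99, 1.22, 0.188 and 2.24 and the 4 KO libraries at 0.640, 0.279, 0.117 and 0.318, so WT mouse 5 lay among the KO values. The fitted log2 change was -2.58 ± 0.45 (SE, adjusted p = 0.0074) in RiboZero, -1.93 ± 0.16 (adjusted p = 2.0e-05) in PolyA and -2.07 ± 0.70 (adjusted p = 0.20, not called) in NoSelect. The RiboZero call rested on 0 to 73 counts per library, was lost in mice 3 to 6 alone (adjusted p = 0.080), and could not be made where 10 counts were required in every library.

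Most of the sequence of Rps13 recurs in other rows. Of its words 79.2% recur in Rps13-ps1, a processed pseudogene on chromosome 8, and 75.7% in Rps13-ps2 on chromosome 7. The coding sequence of Rps13-ps2 matches over 453 aligned bases, and that of Rps13-ps1 differs at 2 of 456, positions 411 and 429 counted from the start codon. The last 66 coding bases hold both, in capitals (GRCm38; Rps13 at chr7:116331505-116334195, minus strand, and Rps13-ps1 at chr8:87047689-87048226, plus strand).
Rps13: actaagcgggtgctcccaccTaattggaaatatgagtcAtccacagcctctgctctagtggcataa
Rps13-ps1: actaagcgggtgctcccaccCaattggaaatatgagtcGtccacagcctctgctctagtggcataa

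The pseudogene row divided the mice. Rps13-ps1 was at 53.6 to 73.6 normalised CPM in the 6 RiboZero KO libraries, with a median of 65.2, and at 0 in 5 of 6 WT libraries. The remaining WT library, of mouse 3, was at 35.8. In PolyA the KO libraries ran from 111 to 128 and WT mouse 3 stood at 49.3, and the other 5 WT libraries were at 0.0837 or less. In NoSelect the KO libraries were at 64.9, 64.4, 59.6 and 66.5, WT mouse 3 at 36.5 and the other 3 WT libraries at 0. WT mouse 3 therefore lay between the genotypes in all 3 of its libraries. With that mouse among the WT libraries, the row was not called in RiboZero (3.40 ± 1.1 SE, adjusted p = 0.13), PolyA (3.82 ± 1.35, adjusted p = 0.15) or NoSelect (2.77 ± 1.33, adjusted p = 0.37).

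A row listed only by a transcript identifier, ENSMUST00000093344, was the mirror image. The annotation used here does not hold this transcript, so its gene was not determined. It was picked after its values were seen, as the only row of the table at 3 counts or fewer in all KO libraries and at 100 counts or more in all WT libraries. It was at 0 in all KO libraries. In WT it ran from 60.9 to 64.7 normalised CPM in RiboZero, from 75.7 to 94.8 in PolyA and from 62.5 to 67.3 in NoSelect, leaving out mouse 3, which stood at 29.4, 36.6 and 29.0. In each preparation WT mouse 3 thus held less than its group in this row and more than its group in Rps13-ps1.

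As a description, Rps13, Rps13-ps1, Rps13-ps2 and this row were added together. In RiboZero the sum was 64.4 ± 2.19 (SD, n = 6) in WT and 64.7 ± 6.69 (SD, n = 6) in KO, and WT mouse 3 was at 67.9. In NoSelect it was 66.2 ± 2.99 (SD, n = 4) and 64.2 ± 3.09 (SD, n = 4). In PolyA it was 135 ± 7.97 and 147 ± 8.54 (SD, n = 6 each). The library values of the genotypes overlapped in each preparation. Because the transcript row was picked for its difference between the genotypes, no test of this sum is given. Rps13-ps2 had counts in PolyA alone, where WT ran from 42.9 to 51.0 normalised CPM and KO from 17.7 to 33.2. When only rows sharing at least 30% of the words of Rps13 were summed, which leaves the transcript row out, the log2 change turned to 3.01 ± 0.77 in RiboZero (adjusted p = 0.052), 1.30 ± 0.15 in PolyA (adjusted p = 5.6e-04) and 2.50 ± 0.95 in NoSelect (adjusted p = 0.25). The Rps13 gene lies 3.02 Mb beyond the end of Arntl (chr7:113207465-113314126), and it is 1 of 15 members on chromosome 7. Of these, Rps12l1 had no counts to test, and no other was called in KO against WT in the fits over all libraries. Of all rows 3.46%, 4.03% and 2.17% were called in RiboZero, PolyA and NoSelect, so no call among so few rows does not set them apart.

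**Figure D5:**
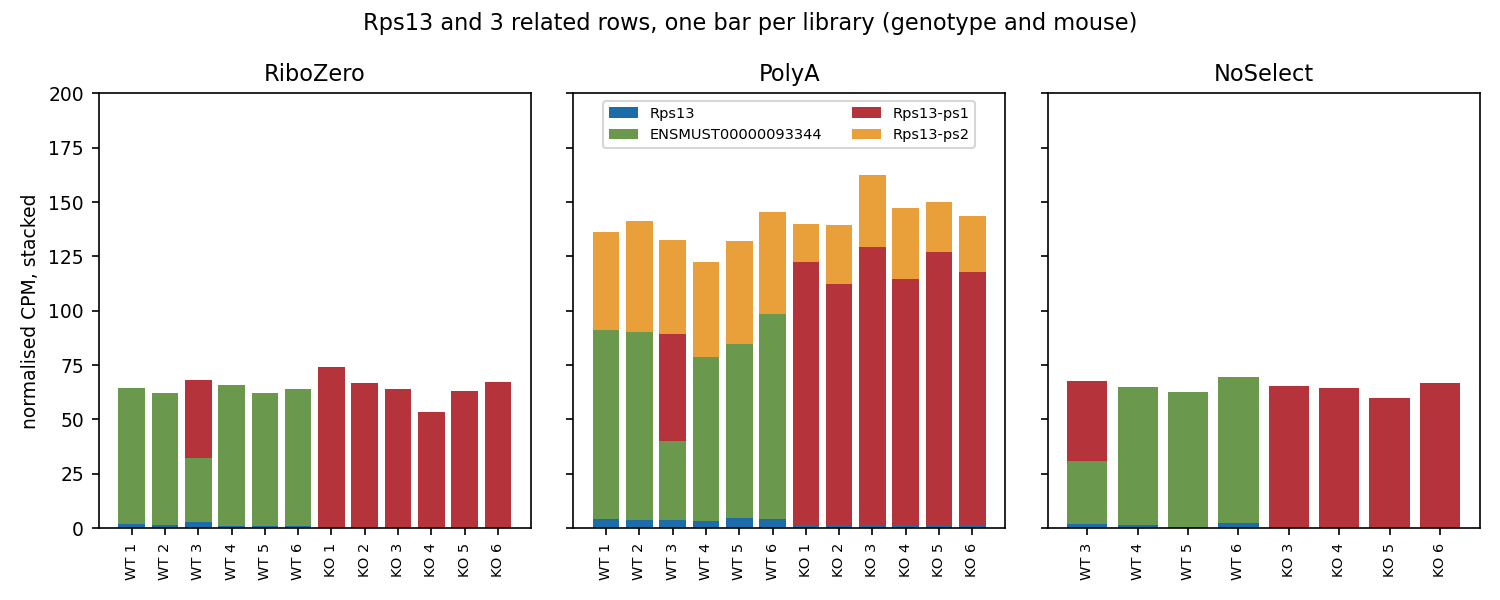
Stacked normalised CPM (vertical axis) of Rps13, the row ENSMUST00000093344, Rps13-ps1 and Rps13-ps2 in every library, 1 bar per mouse, for each preparation. In RiboZero and NoSelect nearly all of a KO bar is Rps13-ps1 and, except in WT mouse 3, nearly all of a WT bar is the transcript row. In PolyA Rps13-ps2 adds 42.9 to 51.0 in WT and 17.7 to 33.2 in KO, and WT mouse 3 holds both the transcript row and Rps13-ps1 in each preparation.

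At their start sites members carried pyrimidine runs more often than genes at large. RefSeq windows on GRCm38.p6, from 250 bases before to 50 after each start, were matched by symbol for 66 of the 91 members. A run of at least 7 C or T bases on the coding strand, from 10 bases before to 20 after the annotated start, was present in 33 of 66 members (50%), in 20.5% of 27025 genes, in 13% of 69 mitochondrial ribosomal protein genes and in 5 of 10 matched TOP and factor genes. The run is a match of letters near an annotated start, not a mapped start of transcription. Of the rows above, Rps12 and Rps27 hold such a run and Rps27rt and Rps13 do not, as these 30-base windows show (the run in capitals; Rps12 chr10:23787190-23787219, Rps27 chr3:90213629-90213658, Rps27rt chr9:114982720-114982749 and Rps13 chr7:116334171-116334200, all minus strand).
Rps12: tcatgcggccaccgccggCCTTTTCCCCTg
Rps27: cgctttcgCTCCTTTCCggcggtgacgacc
Rps27rt: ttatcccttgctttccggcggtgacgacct
Rps13: caaacgtcggtgagtggcgtcacttcctgt

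The E-box CACGTG, the element bound by BMAL1 with its partner CLOCK and the same on both strands, lay in the 300-base windows of 6 members (9.09%), Rpl13a, Rpl14, Rpl19, Rpl23, Rpl34 and Rps19, against 8.09% of all genes. None of these 6 was called in KO against WT in the fits over all libraries. Of all rows 3.46%, 4.03% and 2.17% were called in RiboZero, PolyA and NoSelect, so no call among 6 members does not set them apart.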

How the data were processed

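Estimated counts per gene for the 32 libraries were made by the authors before deposit and stand in 1 table. Salmon 1.4.0, UMI-tools 1.1.1 and GRCm38 are named in the submitters' processing notes, and 12.8% of the values had decimals. Each column carries the name of its library. Counts were rounded and tested in R 4.3.3 with edgeR 4.0.16 (TMM, filterByExpr, glmQLFit, glmQLFTest, Benjamini-Hochberg over all rows tested). KO was compared with WT within a preparation, and preparations were compared with genotype as covariate. DESeq2 1.42.0 was an alternative. Fits were tested on simulated counts. Libraries within a group differed by more than counting noise (chi-square per degree of freedom 7.02 to 69.9 over 72 pairs). Replicates are mice, and in KO against WT p-values measure the spread between them. Between preparations the main fits took libraries of the same mice as independent, and the mouse as block was an alternative.

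Libraries of one mouse pair across preparations: over 14367 rows their deviations from group means correlated at 0.512 to 0.778, with the own mouse highest in 28 of 28 cases. Gene types, positions and sequences came from GENCODE M21 (GRCm38), which may differ from the authors' annotation, and start windows from RefSeq. Principal transcripts were chosen by APPRIS tag, RefSeq match, support level and length. Named members were the paralogs with their partners, the stalk proteins, the 5 highest and 5 lowest changes per preparation comparison, rows opposite to the class median, KO calls, Rps19bp1 and the 3 highest per-length levels of each subunit. Members and lists were chosen with earlier results of these data known. Alternatives were other scalings and filters, removal of Lars2 and the Gm42418 row, replicate blocks, mice 3 to 6, thinning, leaving out mice, and summed rows. One gene of the related lists is not reported here.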

Additional observations from a re-analysis of the deposited data

Results flagged for a closer look

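In groups of 4 to 6 libraries, a library was marked where its gap to the nearest other value took most of the group's range (Dixon's 95% limit). Of 251 groups checked, 27 were marked, where chance marks about 1 in 20. All values are normalised CPM, and no cause was tested.

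WT mouse 3 was marked in all its libraries for the rows around Rps13. Rps13-ps1 stood at 35.8 in RiboZero, 49.3 in PolyA and 36.5 in NoSelect, where the other WT libraries reached at most 0.0837. ENSMUST00000093344 stood at 29.4, 36.6 and 29.0, below the other WT libraries in each preparation. The same mouse was high for Rplp2 in RiboZero (102) and Rpl3 in NoSelect (217).

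In NoSelect KO, mouse 6, the library labelled as liver, was high for Rpl36al (31.6), Rpl7 (208), Rpl7l1 (33.5), Rps4x (193) and Rps16-ps2 (24.0, the others at 0), and mouse 3 was low for Rpl13 (73.0) and Rps27l (12.9). In NoSelect WT, Rpl13 was high in mouse 4 (137 against 72.9 to 80.2), and mouse 6 was high for Rpl31 (6.72) and Rplp0 (266) and low for Rpl7l1 (29.99).

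In RiboZero KO, mouse 1 was high for Rps27rt (169) and Rps29 (119), and low values were those of Rps16 in mouse 4 (17.8 against 30.4 to 37.6), Rps4l in mouse 2 (7.94) and Rpl27 in mouse 5 (3.54). Rpl27 was high in RiboZero WT mouse 6 (5.42). In PolyA WT, mouse 1 was high for Rpl22 (132) and low for Rpl5 (21.7).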

How the results depend on the processing

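Over 113 gene results, 2191 alternative values kept direction and side of the threshold, 54 lost and 7 gained the call, and 22 changed sign. Where a count or sign changed, the cause was not tested beyond what an alternative removes by its construction.

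Members lower in PolyA than in NoSelect were 3, but 1 without a filter on low counts and 1 on summed rows, and 3 to 4 with a mouse left out. Members lower in PolyA than in RiboZero were 2, but 1 without a filter, with a minimum of 10 counts per library, on summed rows, in mice 3 to 6 alone and in thinned libraries, and 1 to 2 with a mouse left out. The 18 members at a log2 of at least 1 became 11 with at least 10 counts in every library. In KO against WT, RiboZero had 0 calls in place of 1 with at least 10 counts, on summed rows, and in mice 3 to 6 alone, and 1 to 2 with a mouse left out (Rpl35 added without KO mouse 3). PolyA had 2 with DESeq2, and NoSelect 0 to 1, with Rpl13a called without WT mouse 3. The adjusted p of Rps13 over alternatives ran from 1.0e-06 to 0.080 in RiboZero, from 6.8e-32 to 0.0017 in PolyA and from 0.056 to 0.38 in NoSelect.

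WT and KO mice share only a number, whose deviations correlated at -0.22 to 0.32. With the replicate block the RiboZero count was 0 (Rps13 adjusted p = 0.0502), PolyA kept 1 and NoSelect 0. With the mouse as replicate block, 83, 75 and 82 members were called in PolyA against NoSelect, RiboZero against NoSelect and PolyA against RiboZero, in place of 84, 74 and 82.

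On summed rows the log2 change turned in PolyA against NoSelect for Rpl27 (0.18), Rpl28 (1.77), Rpl5 (-0.93) and Rps16 (0.77), in RiboZero against NoSelect for Rpl27 (0.37) and Rpl5 (-1.18), in PolyA against RiboZero for Rpl27 (-0.21), and for the KO effect on Rps13 (RiboZero 3.01, PolyA 1.30, NoSelect 2.50). Values near 0 also turned. In RiboZero against NoSelect these were Rps13 without KO mouse 3 (0.10) or WT mouse 6 (0.03), in a range of -0.32 to 0.10 over mice left out, and Rps4l in thinned libraries (-0.020). In PolyA against RiboZero, DESeq2, median-of-ratios scaling and the filter of 10 counts gave -0.0069, -0.0064 and -0.0057 for Rpl28 and -0.014, -0.014 and -0.013 for Rps23. In PolyA, Rpl13a in KO against WT was 0.028, 0.014 and 0.053 without KO mouse 2, KO mouse 4 and WT mouse 6, in a range of -0.062 to 0.053. By median transcript length Rpl41 was at 347 and Rps15 at 251 normalised CPM per kilobase in NoSelect.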
